A study of Mus musculus with 6 samples.

Results

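Hid1, Tenc1, Dlg2, Fhl1 and Glis2 are 5 of the 12008 genes of the deposited table that passed a filter on low values (at least 1 normalized CPM in at least 3 libraries). They encode a trafficking protein, a pair of scaffold proteins, a LIM-only protein and a zinc finger factor. They were chosen by their measured values, as genes with large falls in Itpkb-/- cells that lie outside the usual stem cell lists, so their difference between the genotypes is given below as a description with no test. All 5 names were found in the table, and none of the 5 was lost to the filter.

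RNA was taken from mouse bone marrow stem cells with long-term repopulating capacity (LT-HSC), sorted as Lin- Sca-1+ Kit+ cells with the surface phenotype CD34-CD150+CD48-Flk2-. One group of 3 libraries came from mice homozygous for an ENU-induced Itpkb allele, which the labels call Ms T-less with the genotype IPTKB-/-, and the other group of 3 from wild-type (WT) litter mate controls. Both groups were on the C57BL/6 background and untreated as far as the labels say, the mice were age-matched with no age given, and each library pooled 4 mice with at least 10000 sorted cells. The allele is a germline mutation, so the cells around the stem cells carried it too. Itpkb, an inositol trisphosphate 3-kinase gene, had values of 22.1, 23.6 and 25.1 normalized CPM in WT libraries 1, 2 and 3 against 10.2, 14.0 and 18.2 in those labelled Itpkb-/- (limma adjusted p = 0.172, and 0.0541 with the replicate number as a block, which puts it under the limit of 0.15 used below), and such an allele need not remove the transcript.

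Long-term stem cells of the marrow are mostly quiescent and are held in their niche by adhesion receptors that connect to the actin cytoskeleton through scaffold proteins. HID1 is a peripheral Golgi protein that acts in the formation of dense-core secretory vesicles. Tensin 2, the product of Tenc1 (current symbol Tns2), links integrins and actin at adhesion sites and carries SH2 and phosphotyrosine-binding domains. DLG2, also called PSD-93, is a membrane-associated guanylate kinase whose PDZ domains cluster channels and receptors, best known from synapses. FHL1 is a LIM-only protein of muscle with a splice form that binds the Notch pathway factor RBP-J, and GLIS2 is a zinc finger transcription factor related to the Gli factors, whose loss causes a cystic kidney disease.

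The genes lie on 5 chromosomes of build mm10, by the GENCODE M21 annotation. Hid1 lies at chr11:115347707-115367756 on the minus strand, and the others lie on the plus strand: Tenc1 at chr15:102100413-102116401, Dlg2 at chr7:90476672-92449247, Fhl1 at chrX:56731787-56793346 and Glis2 at chr16:4594713-4624924. Promoter windows from RefSeq (build GRCm38.p6, 250 bases before to 50 after an annotated start) matched 3 of the 5 genes, with 1 window for Tenc1, 3 for Dlg2 and 2 for Fhl1. The window with the lowest coordinate of each gene is shown to let their base composition and motifs be compared. They lie at chr15:102102684-102102983, chr7:91090536-91090835 and chrX:56779433-56779732, all on the plus strand, and capitals mark the motif matches named below.
Tenc1: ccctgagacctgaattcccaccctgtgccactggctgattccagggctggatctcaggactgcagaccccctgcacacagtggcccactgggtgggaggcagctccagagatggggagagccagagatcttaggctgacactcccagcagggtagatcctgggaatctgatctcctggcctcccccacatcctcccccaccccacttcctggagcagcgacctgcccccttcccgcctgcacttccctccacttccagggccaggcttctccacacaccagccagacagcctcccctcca
Dlg2: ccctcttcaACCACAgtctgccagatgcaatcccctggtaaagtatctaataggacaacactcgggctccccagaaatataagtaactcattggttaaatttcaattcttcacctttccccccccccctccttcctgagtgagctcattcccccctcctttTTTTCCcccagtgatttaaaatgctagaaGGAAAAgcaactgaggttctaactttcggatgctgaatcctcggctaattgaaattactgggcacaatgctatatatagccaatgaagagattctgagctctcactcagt
Fhl1: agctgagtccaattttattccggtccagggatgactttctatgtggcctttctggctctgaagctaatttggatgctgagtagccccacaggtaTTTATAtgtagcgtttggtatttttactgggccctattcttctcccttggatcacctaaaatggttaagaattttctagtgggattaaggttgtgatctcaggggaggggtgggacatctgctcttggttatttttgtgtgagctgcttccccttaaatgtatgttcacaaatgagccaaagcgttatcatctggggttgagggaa

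The Tenc1 window was 63.7% G and C, against 44.7% for the Dlg2 window and 44.0% for the Fhl1 window, where the median of all 32851 windows was 52.7%. On both strands, 11 motifs were searched, each with the share of all windows that hold it given as its background. The core promoter elements were the TATA box, searched as TATAAA and present in 13.6% of windows, and the GC box, searched as GGGCGG and present in 35.7%. For blood cell factors, the letters AGATAA for GATA factors were in 11.2% of windows, TGTGGT for Runx factors in 16.8%, and those for Ets factors (CCGGAAGT) in 3.89%. For signal-driven factors, the letters GGAAAA for NFAT were in 23.4% of windows, TGANTCA for AP-1 in 7.81%, those for Stat (TTCNNNGAA) in 8.30% and GTAAACA for Foxo factors in 3.65%. The E-box CACGTG was in 7.15% of windows, and the Gli letters GACCACCCA in 0.253%. The Tenc1 window held none of them. The Dlg2 window shown held the Runx letters 1 time and the NFAT letters 2 times. The Fhl1 window shown held the TATA letters 1 time, on the strand opposite to the gene (TTTATA as printed), so this is a match of letters only. The other Fhl1 window held the Runx letters 2 times. Of the other Dlg2 windows, that at chr7:92062144-92062443 held the TATA letters and the GATA letters 1 time each, and that at chr7:92234720-92235019 the GATA letters 1 time. Matches of different motifs did not overlap in the windows shown. No motif of the 11 was in windows of all 3 genes. The values per gene do not tell which start site the reads came from, and the annotated starts of Tenc1, Dlg2 and Fhl1 lie upstream of the windows shown.

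Levels are given as normalized CPM, the authors' counts after scaling by library. Hid1 had the largest fall of the 5. It was at 89.0, 54.1 and 85.6 in WT libraries 1, 2 and 3, against 14.6, 4.51 and 13.1 in Itpkb-/- libraries 1, 2 and 3. The groups did not overlap, WT library 2 was the lowest of its group, and Itpkb-/- library 2 was below the other Itpkb-/- libraries by a factor of about 3. The means were 76.3 ± 19.3 in WT and 10.7 ± 5.45 in Itpkb-/- cells (SD, n = 3 each), a ratio of 7.10, and the log2 difference of normalized CPM + 1 was -2.82. Reads on Hid1 numbered 29 to 100 in the Itpkb-/- libraries and 358 to 460 in WT.

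Tenc1, the tensin gene, was at 57.2, 35.6 and 57.7 normalized CPM in WT libraries 1, 2 and 3. In the Itpkb-/- libraries it was at 11.3, 4.04 and 11.3. It had the same low libraries as Hid1, number 2 of each genotype, and the groups did not overlap. The WT mean of 50.2 ± 12.6 was 5.65 times the Itpkb-/- mean of 8.88 ± 4.19 (SD, n = 3 each), and the log2 difference was -2.45.

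Dlg2, the guanylate kinase scaffold gene, was at 37.6, 40.5 and 49.0 normalized CPM in WT libraries 1, 2 and 3. It was at 4.36, 5.28 and 17.8 in the Itpkb-/- libraries. The WT libraries were close together, and Itpkb-/- library 3 stood above the other Itpkb-/- libraries. The exact 95% Poisson interval of library 3, 15.0 to 21.1, did not meet that of library 1 (2.66 to 6.73, from 20 reads) or of library 2 (3.66 to 7.38). These intervals cover counting error only and leave out variation between libraries. They may be too narrow even for that, since the RNA was amplified and the reads carry no molecular identifiers. The WT mean was 42.3 ± 5.92 and the Itpkb-/- mean 9.15 ± 7.52 (SD, n = 3 each), with a ratio of 4.62 and a log2 difference of -2.33. Without Itpkb-/- library 3 the ratio was 8.78.

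Fhl1, the LIM-only gene, was at 61.9, 50.1 and 59.4 normalized CPM in WT libraries 1, 2 and 3. It was at 14.6, 12.1 and 22.3 in the Itpkb-/- libraries, which all lay below WT. The mean was 57.1 ± 6.24 in WT and 16.3 ± 5.30 in Itpkb-/- cells (SD, n = 3 each), with a ratio of 3.50 and a log2 difference of -1.78. Its WT values had the narrowest spread of the 5 genes, with a highest to lowest ratio of 1.24.

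Glis2, the zinc finger gene, had the lowest WT mean of the 5 and the smallest ratio between genotypes. It was at 24.1, 17.8 and 36.3 normalized CPM in WT libraries 1, 2 and 3 against 8.49, 5.75 and 9.57 in the Itpkb-/- libraries. WT library 3 was about 2 times WT library 2, and the groups did not overlap, with the lowest WT value 1.86 times the highest Itpkb-/- value. The WT mean was 26.1 ± 9.41 against 7.94 ± 1.97 in Itpkb-/- cells (SD, n = 3 each), with a ratio of 3.28 and a log2 difference of -1.57. Glis2 shares 455 of its 4373 exonic bases with Pam16 on the opposite strand, and reads of the 2 genes there cannot be told apart because the library kit does not mark strand. Pam16, a mitochondrial import gene, had WT values of 36.1, 51.6 and 38.5 and Itpkb-/- values of 30.3, 40.9 and 40.1, which overlapped.

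**Figure D1:**
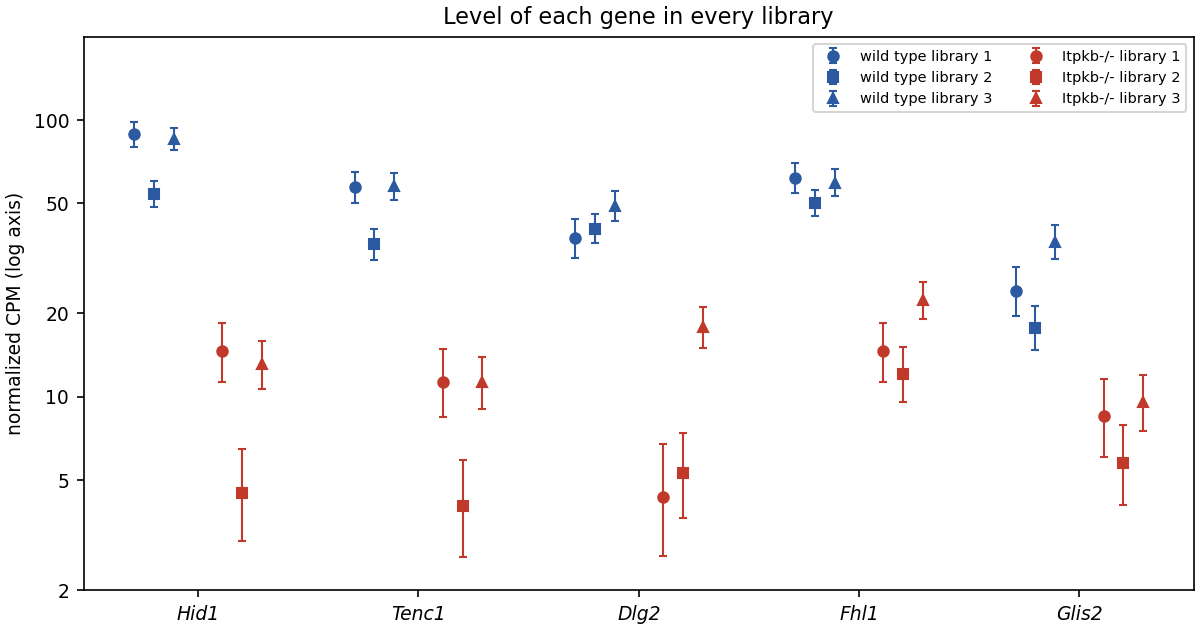
Normalized CPM (log axis) of the 5 genes in the 3 wild-type (blue) and 3 Itpkb-/- (red) libraries, with exact 95% Poisson intervals as bars and the library number as symbol shape. For each gene the Itpkb-/- points lie below all WT points of the same gene, and Dlg2 in Itpkb-/- library 3, at 17.8, lies above the other Itpkb-/- values of Dlg2.

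In each of the 5 genes all Itpkb-/- libraries lay below all WT libraries. This held for 11.3% of all tested genes, and since the genes were chosen on this contrast their count says nothing more. Ordered by log2 difference from the largest fall, Hid1 stood at place 3 of 12008, Tenc1 at 8, Dlg2 at 11, Fhl1 at 37 and Glis2 at 71. Places 1 and 2 were those of Runx1t1 (-3.29) and Apob (-3.00), which are not among the 5. The rule names genes and has no numeric limit; beside Glis2 in this order stood Agmo (-1.57) and Tpbg (-1.56).

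**Figure D2:**
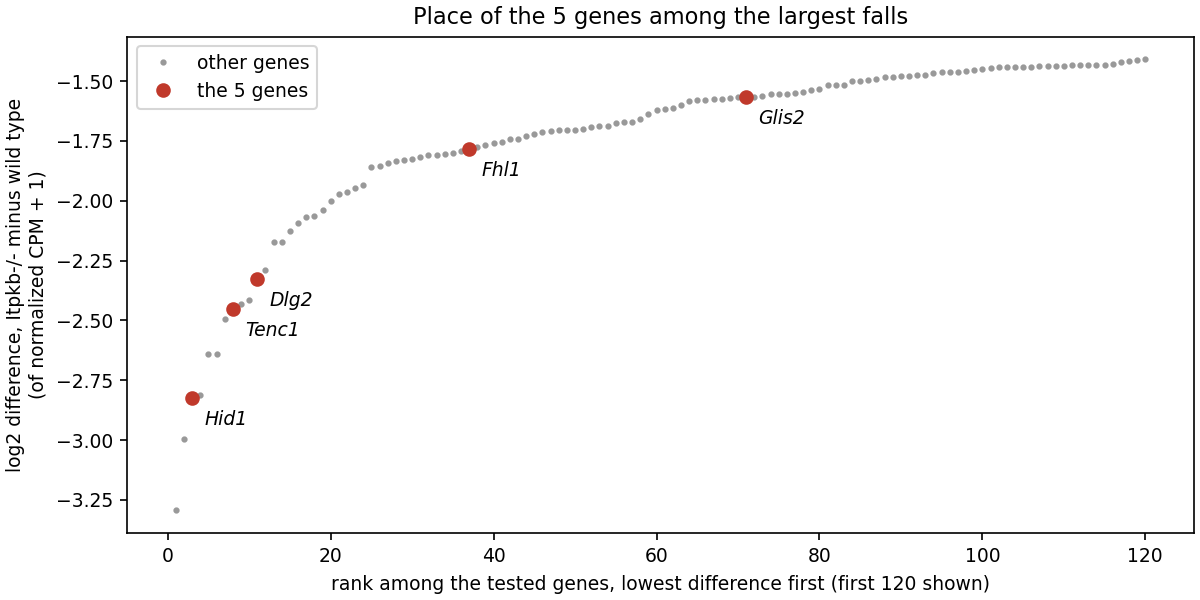
Log2 difference (Itpkb-/- minus wild type, of normalized CPM + 1) of the 120 tested genes with the lowest values, against their rank, with the 5 genes in red. Hid1 stands at rank 3 and Glis2 at rank 71 on the flat part of the curve.

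Per kilobase of annotated exon, the scale on which genes can be compared, the order of the WT levels was Hid1, Fhl1, Tenc1, Glis2 and Dlg2. Hid1 was at 16.6 ± 4.19 and Fhl1 at 15.4 ± 1.68 normalized CPM per kb (SD, n = 3 each), and their WT ranges overlapped. Tenc1 was at 9.20 ± 2.32 and Glis2 at 5.96 ± 2.15, which also overlapped, while Dlg2 was at 2.60 ± 0.364, below every other range. Among tested genes with a length, Hid1 stood at percentile 76.6 and Fhl1 at 74.8 in WT, Tenc1 at 60.7, Glis2 at 48.1 and Dlg2 at 27.1. In Itpkb-/- cells the order was Fhl1 (4.40 ± 1.43), Hid1 (2.34 ± 1.19), Glis2 (1.82 ± 0.450), Tenc1 (1.63 ± 0.769) and Dlg2 (0.562 ± 0.462), all in normalized CPM per kb. Fhl1 lay above the ranges of the others there, and each later neighbour in the order overlapped the one before it. The percentiles in Itpkb-/- cells were 39.5 for Fhl1, 25.5 for Hid1, 21.3 for Glis2, 19.8 for Tenc1 and 7.61 for Dlg2. The Dlg2 level is understated if the cells use a short isoform, since its annotated exons sum to 16.3 kb against 3.71 to 5.45 kb for the others.

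Libraries with the same number in their titles deviated together across genes, so the ratios can also be read number by number. The WT to Itpkb-/- ratio of Hid1 was 6.10, 12.0 and 6.53 for numbers 1, 2 and 3, and that of Tenc1 was 5.05, 8.80 and 5.12. In both it was largest for number 2. The ratio of Dlg2 was 8.62, 7.67 and 2.75, and that of Fhl1 was 4.24, 4.13 and 2.67, both smallest for number 3. The ratio of Glis2 was 2.84, 3.09 and 3.79, largest for number 3.

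Within a genotype Hid1 and Tenc1 moved together. Their log2 deviations from the genotype mean were 0.55 and 0.43 in Itpkb-/- library 1, -0.95 and -0.86 in library 2 and 0.40 and 0.43 in library 3. In WT they were 0.25 and 0.22, -0.45 and -0.45, and 0.20 and 0.23. The ratio of Hid1 to Tenc1 in normalized CPM stayed between 1.48 and 1.56 in WT and between 1.12 and 1.29 in Itpkb-/- libraries. Dlg2 did not follow that course: it deviated by -0.68 in Itpkb-/- library 1 and by 1.13 in library 3. The ratio of Hid1 to Dlg2 ranged from 0.735 to 3.35 over the Itpkb-/- libraries.

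Markers of other cells also differed between libraries. The granulocyte list of 13 genes, all with at least 3 reads in some library, had sums of 3805, 2714 and 738 normalized CPM in WT libraries 1, 2 and 3, against 6634, 18778 and 955 in those of Itpkb-/- cells. None of the 13 was called by limma (adjusted p up to 0.15), and with the replicate block 12 were called, all higher in Itpkb-/- cells. Over all 12008 tested genes the share called was 5.5%, with 3.24% lower and 2.27% higher, and 18.1% with the block. Itpkb-/- library 2, with the highest sum, had the lowest Hid1, Tenc1, Fhl1 and Glis2. Without that library the WT to Itpkb-/- ratios were 5.51 for Hid1, 4.44 for Tenc1, 3.82 for Dlg2, 3.10 for Fhl1 and 2.89 for Glis2. The other libraries kept no single order. Itpkb-/- library 1, with a higher sum than library 3, had more Hid1 (14.6 against 13.1), like Tenc1 (11.3 each) and less Dlg2, Fhl1 and Glis2. Among WT libraries, library 1 had the highest sum and the highest Hid1 and Fhl1. WT library 3 had the lowest sum and the highest Tenc1, Dlg2 and Glis2. The megakaryocyte and platelet list (13 of 14 genes with at least 3 reads in some library) summed to 2946 in Itpkb-/- library 3 and to 1688 to 2050 in the other 5 libraries. Among the Itpkb-/- libraries Dlg2 was highest in library 3, but every WT library lay above it. Of its 12 tested genes 4 rose and 1 fell by limma (6 and 1 with the block). Those that rose were Selp (134 ± 34.8 against 35.3 ± 2.15 in WT, adjusted p = 0.00161), Itga2b (307 ± 71.2 against 139 ± 8.89, adjusted p = 0.00831), Itgb3 (443 ± 53.1 against 235 ± 20.3, adjusted p = 0.00835) and Gp1ba (67.4 ± 6.65 against 38.9 ± 4.89, adjusted p = 0.0432), all in normalized CPM (SD, n = 3 each). Gp1ba lost its call in 1 of the fits without 1 library, that without WT library 3 (adjusted p = 0.227). The part of these markers in the levels of the 5 genes was not tested.

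The 12 LT-HSC markers were all present, and their sum was 1620 to 2218 normalized CPM in Itpkb-/- libraries against 2781 to 3356 in WT, groups that did not overlap. By limma 6 of the 12 fell and none rose (8 and 0 with the block). Over all tested genes the share called lower was 3.24%, and with the block 18.1% were called in either direction. Of the 6 genes of the sort gate, none was called by limma, and with the block 2 rose and 1 fell. Those that rose with the block were genes whose product the gate excludes: Cd48, with WT values of 8.95, 13.6 and 4.65 normalized CPM and Itpkb-/- values of 33.3, 30.8 and 7.08 (adjusted p = 0.0205 with the block), and Flt3, which encodes Flk2 (adjusted p = 0.0569 with the block). Kit, whose product the gate requires, was the one that fell with the block. Cd34, whose product the gate also excludes, was not called with the block (adjusted p = 0.276). Nor were Ly6a (0.595) and Slamf1 (0.944), whose products the gate requires. In such bulk libraries fewer cells of a type and less RNA per cell cannot be told apart, and the part of the LT-HSC markers' fall in that of the 5 genes was not tested. The endothelial list had 15 of 15 genes with at least 3 reads in some library and summed to 266 to 464 in Itpkb-/- and 337 to 407 in WT libraries. Its defining gene Cdh5 reached at most 0.52 in any library. Of its 8 tested genes 1 fell by limma, Emcn, from 39.3 ± 4.73 to 13.7 ± 2.25 (adjusted p = 0.00824), and with the block 1 rose and 2 fell. Of 14 stromal genes, Lepr, Col3a1, Lum and Grem1 had no read in any library, and the list summed to 75.2 to 91.3 in Itpkb-/- against 106 to 131 in WT, of which Bgn alone made 82.1 to 106.3 in WT. The 4 tested stromal genes did not move one way: Bgn fell (97.8 ± 13.6 to 22.4 ± 8.05, limma adjusted p = 0.00299), while Pdgfrb rose from 9.17 ± 1.15 to 36.7 ± 11.7 (adjusted p = 0.00938) and Sparc from 1.58 ± 2.29 to 12.6 ± 3.34 (adjusted p = 0.0338, and 0.195 without WT library 3). The erythroid list summed to 695 to 1330 and 1149 to 1699, and the lymphoid list to 33.8 to 45.8 and 32.8 to 45.3, in Itpkb-/- and WT libraries.

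**Figure D3:**
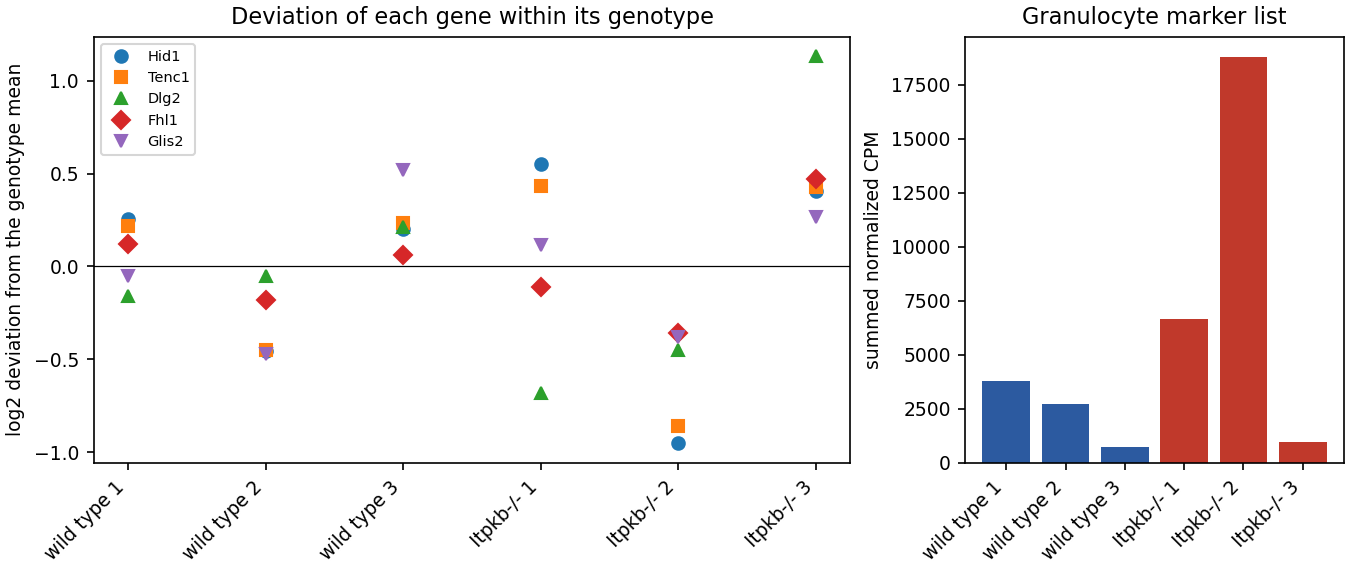
Left, log2 deviation of each of the 5 genes from its genotype mean in every library, with 1 symbol per gene. Right, summed normalized CPM of the granulocyte marker list in the same libraries: Itpkb-/- library 2 has the highest sum, 18778, and the lowest Hid1 and Tenc1. Mpo makes 8728.5 of that sum. In WT, library 1 has the highest sum and the highest Hid1, and library 3 the lowest sum and the highest Tenc1.

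Genes with the most similar profile were taken as the 3 with the highest Pearson r of log2(normalized CPM + 1) over the 6 libraries, a description in which the difference between the genotypes weighs most. For Hid1 the nearest of the 12007 other tested genes was Tenc1 (r = 0.999), followed by Irak1bp1 and Jam2 (0.994 each), the latter a junctional adhesion molecule gene. For Tenc1 they were Hid1, Jam2 (0.998) and D4Wsu53e (0.996). Jam2 had WT values of 22.4, 17.2 and 23.1 normalized CPM and Itpkb-/- values of 9.58, 6.06 and 10.6 in libraries 1, 2 and 3, with number 2 lowest in each genotype, as for Hid1 and Tenc1. For Dlg2 they were Nbea (0.997), a neurobeachin gene of membrane trafficking, Prex2 (0.996), a Rac exchange factor gene, and Iffo2 (0.995). Nbea had WT values of 48.0, 52.9 and 62.4 and Itpkb-/- values of 16.1, 18.2 and 35.1, with the high value in Itpkb-/- library 3 that Dlg2 also had. For Fhl1 they included Bgn (0.998), which encodes the matrix proteoglycan biglycan, and Tbkbp1 (0.997). For Glis2 they were Dip2c (0.994), Clcf1 (0.993), a cytokine gene, and Cdk14 (0.993). Among the 5, Dlg2 was less similar to Hid1 (r = 0.884, place 598), Tenc1 (0.892) and Glis2 (0.899) than to Fhl1 (0.965), and no pair without Dlg2 was under 0.953. Such values are not particular to the 5: from 363 (Dlg2) to 492 (Hid1) other tested genes had an r above 0.9 with each of them.

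The relatives of the 5 genes were not used to choose them, so their difference between genotypes was tested across all 12008 genes (limma with Benjamini-Hochberg adjustment, with genes called up to an adjusted p of 0.15, the false discovery rate in the series design text). The test called 5.5% of all tested genes, 3.24% as lower and 2.27% as higher in Itpkb-/- cells, and 18.1% with the replicate block. Of 13 relatives 8 were tested and none was called. An unadjusted p under 0.05 was reached by 3, and edgeR and DESeq2 called 0. With the replicate block 3 were called: Tns1 (adjusted p = 0.0340), Dlg5 (0.0746) and Dlg3 (0.126).

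Among the tensins, Tns1 averaged 298 ± 31.3 normalized CPM in WT and 233 ± 9.79 in Itpkb-/- cells (SD, n = 3 each; log2 difference -0.35, SE 0.12, limma adjusted p = 0.204). Tns3 averaged 83.8 ± 1.86 in WT and 95.2 ± 1.33 in Itpkb-/- cells (0.18, adjusted p = 0.545), and Tns4 had reads, 11 in all, in Itpkb-/- library 2 alone. Tenc1 made 19.7% to 30.5% of the tensin level, in normalized CPM per kb, in WT libraries and 3.13% to 8.29% in Itpkb-/- libraries. Of the genes related to Dlg2, Dlg1 was at 60.6 ± 5.11 in Itpkb-/- and 63.0 ± 5.71 in WT cells (log2 difference -0.05), Dlg3 at 43.7 ± 4.75 and 32.5 ± 2.77 (0.41), Dlg4, whose product PSD-95 is the best known of this family, at 17.7 ± 3.33 and 19.1 ± 6.17 (-0.08), and Dlg5 at 1.67 ± 0.426 and 5.27 ± 2.57 (-1.16). Their adjusted p were 0.911, 0.278, 0.925 and 0.178. Dlg2 made 15.4% to 17.3% of the level of the 5 Dlg genes per kb in WT and 2.01% to 6.40% in Itpkb-/- libraries.

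Fhl3, the only relative of Fhl1 that was tested, averaged 45.8 ± 9.42 normalized CPM in WT and 33.7 ± 4.85 in Itpkb-/- cells (log2 difference -0.43, SE 0.20, limma adjusted p = 0.329). Fhl2 had 2 reads and Fhl4 37 reads over the 6 libraries. Fhl5 had none, which allows up to 0.393 to 0.746 normalized CPM, the worth of 3 reads, depending on the library. Fhl1 made 33.0% to 39.7% of the level of the 5 Fhl genes per kb in WT libraries and 15.3% to 20.3% in Itpkb-/- libraries. Glis3 was at 3.34 ± 2.06 in Itpkb-/- and 4.95 ± 2.89 in WT cells (log2 difference -0.45, adjusted p = 0.737), and Glis1 had 8 reads in all. Glis2 thus made 84.0% to 93.5% of the level of the 3 Glis genes per kb in WT libraries and 69.4% to 94.0% in Itpkb-/- libraries, ranges that overlapped.

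**Figure D4:**
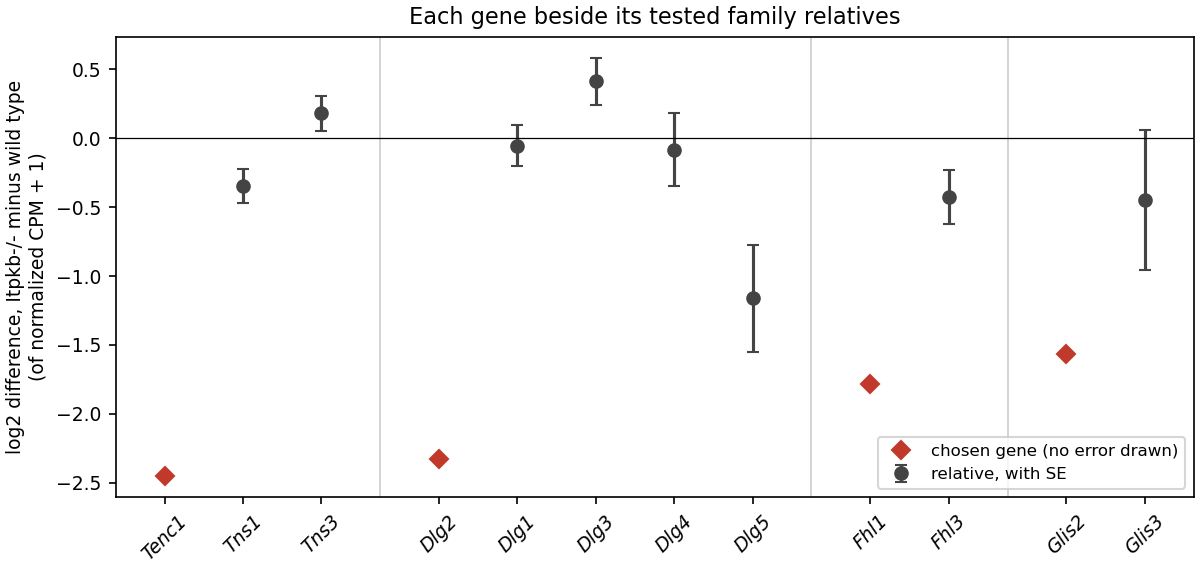
Log2 difference (Itpkb-/- minus wild type, of normalized CPM + 1) of Tenc1, Dlg2, Fhl1 and Glis2 (red) and of their 8 tested relatives (dark grey, with SE). The relatives lie between -1.16 (Dlg5) and 0.41 (Dlg3).

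Lists of other genes around each of the 5, leaving them out, are given by counts beside the background above. Of 34 tested genes of Golgi and dense-core vesicle trafficking, the setting of Hid1, none was called by limma, edgeR or DESeq2, and 3 had an unadjusted p under 0.05. The median log2 difference was -0.09, where that of all tested genes was 0.00. Furin, a protease of the Golgi, had WT values of 89.0, 68.5 and 76.0 normalized CPM and Itpkb-/- values of 52.1, 60.0 and 62.1 (limma, log2 difference -0.41, adjusted p = 0.232). Rab2a, a Golgi GTPase gene, had a log2 difference of -0.27 (adjusted p = 0.312). With the replicate block both were called, the 2 of this list that were (adjusted p = 0.0905 and 0.120).

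Of 33 tensin and focal adhesion genes 1 fell, and the other 32 missed the limit. The median of their log2 differences was -0.11. Ptk2, the gene of focal adhesion kinase, fell from 18.3 ± 4.67 to 9.32 ± 0.697 normalized CPM (SD, n = 3 each; log2 difference -0.88, SE 0.25, limma adjusted p = 0.124). Its WT values were 15.2, 16.0 and 23.6 and its Itpkb-/- values 9.80, 9.63 and 8.52. Of the 6 fits without 1 library, only that without Itpkb-/- library 1 kept the call, and the others gave adjusted p of 0.173 to 0.409. With the block 4 genes rose and 5 fell.

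The list of guanylate kinase and polarity genes had 3 of 36 called, all lower, with a median log2 difference of -0.17. Of the 36 log2 differences 28 were negative, where the share over all tested genes was 49.8%. The 3 encode scaffolds with several PDZ domains. Inadl (current symbol Patj), a tight junction scaffold gene, fell from 44.3 ± 8.52 to 23.1 ± 3.72 normalized CPM (SD, n = 3 each; log2 difference -0.90, SE 0.21, limma adjusted p = 0.0595). Its close relative Mpdz fell from 21.6 ± 2.69 to 10.3 ± 3.96 (-1.06, adjusted p = 0.102), and Magi2, a synaptic and junctional scaffold gene, from 7.12 ± 1.72 to 2.70 ± 0.414 (-1.12, adjusted p = 0.116). In these 3 genes every WT library lay above every Itpkb-/- library, as in 11.3% of all tested genes. They are named because they were called lower, so this adds no support to the calls. The call of Inadl was kept without Itpkb-/- library 1 or 3 or WT library 1, and the fits without the other 3 libraries gave 0.154 to 0.266. Mpdz and Magi2 kept theirs without Itpkb-/- library 3 alone, and in the other 5 fits their adjusted p was 0.154 to 0.292 and 0.155 to 0.327. The block called 3 genes of the list as higher and 7 as lower.

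In the LIM domain list 27 of 29 genes missed the limit, and the median log2 difference was -0.12. The other 2, 1 higher and 1 lower, reached 1 normalized CPM in libraries of 1 genotype only, so they passed the filter through the group where they are high, and their count is no support for a change of the list. Csrp3, a LIM protein gene of striated muscle, had Itpkb-/- values of 8.93, 9.48 and 2.10 normalized CPM and WT values of 0, 0.897 and 0.186, the latter from 6 reads at most (limma, log2 difference 2.39, adjusted p = 0.0462). Ldb2, a partner of LIM domain factors, was at 1.24, 3.89 and 5.58 in WT, and its Itpkb-/- libraries held 0, 0 and 2 reads (limma, log2 difference -1.95, adjusted p = 0.0706). At such levels the log2 difference depends on the 1 added to each value. Csrp3 lost its call without Itpkb-/- library 2 or WT library 3, and Ldb2 without Itpkb-/- library 2 or WT library 2 or 3, at adjusted p of 0.159 to 0.208 and 0.173 to 0.298. With the block 4 LIM genes rose and 8 fell.

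Of 25 Glis, Gli and hedgehog genes 1 fell. This was Invs, which encodes inversin, a protein of the primary cilium whose loss, like that of GLIS2, causes a cystic kidney disease. It fell from 42.2 ± 2.26 to 26.6 ± 3.87 normalized CPM (SD, n = 3 each; log2 difference -0.65, SE 0.18, limma adjusted p = 0.109). The call was kept without Itpkb-/- library 1 and lost in the other 5 fits without 1 library (adjusted p = 0.174 to 0.359). The median of the list was -0.16, with 19 of the 25 log2 differences negative, and with the block 1 gene of it was called.

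The shares called were 0% for the trafficking list, 3.03% for focal adhesion, 8.33% for guanylate kinases and polarity, 6.90% for LIM domains, from the 2 genes with the limit just given, and 4.00% for Glis and hedgehog genes. The background share was 5.5%.

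The genes next to each of the 5 on its chromosome were examined in the same fit, taking the 2 nearest tested genes on each side. Of these 20 genes 1 was called, a share of 5%, and their median log2 difference was 0.00, in a range of -0.62 to 0.58. Around Hid1, the nearest was Ict1 at 36.0 kb, with a log2 difference of 0.01. Spryd3 ends 127 bases from the annotated end of Tenc1 and had a log2 difference of 0.18, and Eif4b, a translation initiation factor gene 3.24 kb on the other side, had 0.00. The gene called was Krt18, a keratin gene 68.4 kb from Tenc1, which fell from 97.8 ± 20.4 to 62.6 ± 8.13 normalized CPM (SD, n = 3 each; log2 difference -0.62, SE 0.18, limma adjusted p = 0.117), and only the fits without Itpkb-/- library 1 or 3 kept the call, the others giving 0.183 to 0.304. With no filter on low values its adjusted p was 0.160 and none of the 20 was called. Tmem126b, 0.671 kb from the start of Dlg2, had a log2 difference of -0.04. Mtap7d3, 4.51 kb beyond Fhl1, had 0.18. Pam16, which overlaps Glis2, had -0.17 (adjusted p = 0.742), and Coro7, 1.21 kb from Glis2, had -0.27 (adjusted p = 0.342).

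**Figure D5:**
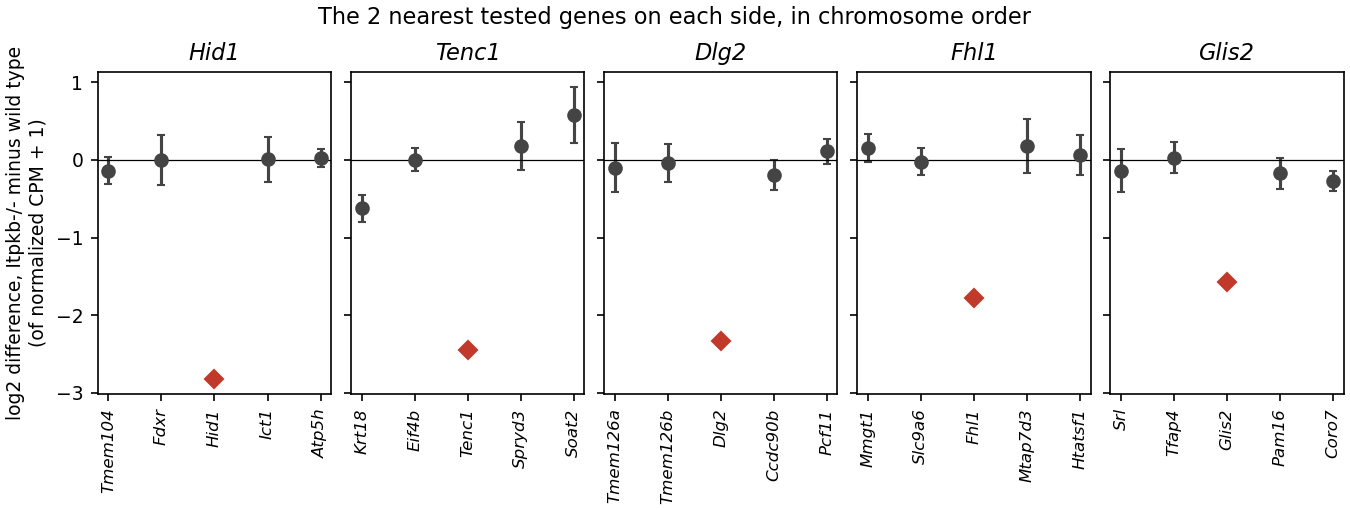
Log2 difference (Itpkb-/- minus wild type, of normalized CPM + 1) of each of the 5 genes (red) and of the 2 nearest tested genes on each side (dark grey, with SE), in chromosome order. The 20 neighbours lie between -0.62 (Krt18) and 0.58 (Soat2), above all 5 genes.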

How the data were processed

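RNA of the sorted cells, 1 to 5 ng by the labels' protocols, was amplified with the NuGEN Ovation system. Per the submitters' processing notes, the authors used CASAVA 1.8.2, cutadapt, TopHat2 2.0.8b, Partek and edgeR on build mm10. The deposited signal is gene counts divided by the authors by 1 factor per library, on the scale of CPM. All values (100%) lay within 0.01 read of a whole number, giving totals of 4024203 to 7470329 reads, and 1 read was worth 0.131 to 0.249 normalized CPM. Tests used limma 3.58.1 (R 4.3.3, mean-variance trend) on log2(value + 1), with calls up to an adjusted p of 0.15. Fold changes on this scale are understated for low genes. edgeR 4.0.16 (692 genes called) and DESeq2 1.42.0 (883) on the recovered reads, other pseudocounts and filters, a replicate block and fits without 1 library were alternatives. Same-numbered libraries deviated together (r = 0.296, 0.268 and 0.284 across genes). The other pairs were at most -0.0475, but deviations from a genotype mean force negative values there when the same-numbered pairs are positive. The meaning of the numbers is not given in the labels. The main limma fit had no term for the number and so ignored this pairing. Only the fit with the replicate block paired the libraries, and it called 2176 genes against 661. The limma fit was checked on simulated data without an effect of the replicate number, so that check does not cover the pairing of these libraries. The 5 genes and all lists were chosen with earlier results of these data known. The genes named are the 5, their family relatives in the table, called genes of each list or else the 2 of smallest p, the nearest tested neighbours and the 3 most similar genes; single genes among these and the marker lists are not reported here. Lengths come from GENCODE M21 (98.1% of table names matched).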

Additional observations from a re-analysis of the deposited data

How the results depend on the processing

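The log2 differences of the 5 genes stayed negative under the 13 alternatives (12 for Glis2, which the limit of a mean log2 value above 4 leaves out), from -3.10 to -2.35 for Hid1, -2.68 to -2.02 for Tenc1, -2.89 to -1.95 for Dlg2, -2.02 to -1.60 for Fhl1 and -1.80 to -1.30 for Glis2. The count of called genes, 661, was 386 with that limit, 2176 with the replicate block and 74 to 837 without 1 library: 74 without WT library 3, 266 without Itpkb-/- library 2, 297 without WT library 2 and 299 without WT library 1. The block called 2 trafficking, 9 focal adhesion, 10 polarity and 12 LIM genes, and it brought Itpkb, Tns1, Dlg3, Dlg5, Furin and Rab2a under the limit, as well as the marker genes given above. With the limit above 4 the focal adhesion and LIM lists had 0 and the polarity list 1 called, and with no filter the focal adhesion list had 0, the polarity list 1 and the neighbours 0. DESeq2 called 5 polarity genes and edgeR 1 LIM gene. Without 1 library the lists had 0 to 1 (trafficking), 0 to 3 (focal adhesion), 0 to 4 (polarity), 0 to 4 (LIM) and 0 to 1 (Glis and hedgehog) called. The limit above 4 left out Ptk2, Mpdz, Magi2, Csrp3 and Ldb2 before any test, and the edgeR fit left out Ldb2. The cause of the other changes was not tested. With 3 libraries per genotype, calls near the limit rest on single libraries, and genes under 1 normalized CPM could not be compared at this depth.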
